A study of Mus musculus with 12 samples.

Results

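The spleen transcripts of 10 genes that mark monocytes were followed in this study: Ly6c1, Ly6c2, Ccr2, Cx3cr1, Csf1r, Cd14, F13a1, Fcgr1, Fcgr4 and Treml4. They were chosen by symbol as known genes of classical and patrolling monocytes, and they are 10 of the 18221 genes listed in the deposited tables. The level of a gene is its RPKM, the reads mapped to it scaled to transcript length and to sequencing depth, summed over the transcripts listed for it (30 transcripts for these genes). Spleen RNA came from 12 males of ICR, an outbred stock, aged 3 weeks at the start and 8 weeks at collection, and each of the 4 groups held 3 of them. Con-sa mice received saline. B-sa mice received saline after a single injection of busulfan, an alkylating drug that damages dividing cells, at 40 mg/kg. B+Con-FMT and B+A10-FMT mice received the same busulfan injection and then fecal microbiota transplantation (FMT) by mouth, once daily for 2 weeks. The transplanted material was pooled small-intestine content of donor mice, which for B+Con-FMT were control donors. For B+A10-FMT the donors had been given alginate oligosaccharides, sugars made from seaweed alginate, at 10 mg/kg for 3 weeks. All mice of an FMT group therefore shared a donor pool, and the mouse is the replicate throughout.

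Monocytes are made in the bone marrow and circulate in the blood, and the spleen holds a store of them in its red pulp. Classical monocytes of the mouse carry much Ly6C on their surface and leave the marrow through the chemokine receptor CCR2. Patrolling monocytes carry little Ly6C and much CX3CR1, crawl along the vessel wall and need signals through the CSF1 receptor to survive. None of these genes is particular to monocytes: Ly6c1 is also made by endothelium, Ly6c2 by other myeloid and some lymphoid cells, Csf1r by macrophages, and Ccr2 and Cx3cr1 by natural killer (NK) and dendritic cells.

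The steps between low RPKM values gave an estimated depth of 15000000 to 15800000 reads per mouse. Globin transcripts held 23.32% to 32.41% of all RPKM. The markers of the spleen's own cells were present in every group, with a summed RPKM of 1421 to 2076 for 6 B cell genes and of 806 to 1394 for 10 red pulp macrophage genes. Some libraries stood apart in pancreatic RNA: the summed RPKM of 6 acinar genes was 4525 to 6995 in the B+Con-FMT mice and 5426 in mouse 3 of B+A10-FMT, against 239 to 3812 in the other 8 mice. The B+Con-FMT group takes part in most of the calls below, and the part of these genes in the results was not tested.

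The monocyte genes called in any comparison were all called between the 2 FMT groups. Ccr2, Cx3cr1, Csf1r and Treml4 were called higher in B+A10-FMT mice than in B+Con-FMT mice (4 of 10 members, where 7.58% of the 12671 genes tested were called higher). Csf1r and Treml4 were also called higher in B+A10-FMT mice than in B-sa mice (2 of 10, against 4.0% of all genes tested). Ccr2 was called lower in B+Con-FMT than in Con-sa (1 of 10, against 6.57% of all genes tested). Calls rest on an adjusted p under 0.05 by limma, a linear model fitted to log2(RPKM + 1) of all 12 mice with p-values adjusted by the Benjamini-Hochberg method over all genes tested. Differences below are on that log2 scale, which understates the change of low genes, and stand with their standard error (SE). The split of all called genes into higher and lower moved with the scaling. It was 960 higher and 352 lower for B+A10-FMT versus B+Con-FMT in the RPKM as deposited, 551 and 695 after median-of-ratios scaling, and 2100 and 239 with totals made equal outside the globin genes. In B+Con-FMT versus Con-sa it was 292 and 832 as deposited, 632 and 499 after median-of-ratios scaling, and 199 and 1637 outside globin. Median-of-ratios scaling gave 966 and 736 in place of 599 and 1239 for B-sa versus Con-sa, and 287 and 329 in place of 507 and 161 for B+A10-FMT versus B-sa. Totals equal outside globin gave 67 and 113 in place of 79 and 28 for B+Con-FMT versus B-sa.

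Limma called 0 of the 10 members in the other 3 comparisons. For B-sa versus Con-sa 4.73% of all genes were called higher and 9.78% lower, and 2 members (Ccr2 and F13a1) had an unadjusted p under 0.05, as 31.3% of all genes did. For B+Con-FMT versus B-sa 0.844% were called in either direction, and Ccr2 was the 1 member with an unadjusted p under 0.05 (18.4% of all genes). For B+A10-FMT versus Con-sa 0.410% were called, and 2 members (Ly6c1 and Treml4) had an unadjusted p under 0.05 (13.5% of all genes). Each group serves in 3 of the 6 comparisons, so that they share mice and are not independent of each other. The median log2 difference of the 10 members was 0.39 for B+A10-FMT versus B+Con-FMT, where that of all genes tested was 0.05, and 0.19 against 0.05 for B+A10-FMT versus B-sa. It was 0.02 against -0.04 for B-sa versus Con-sa, -0.15 against -0.04 for B+Con-FMT versus Con-sa, -0.17 against -0.0041 for B+Con-FMT versus B-sa and 0.25 against 0.005 for B+A10-FMT versus Con-sa.

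**Figure D1:**
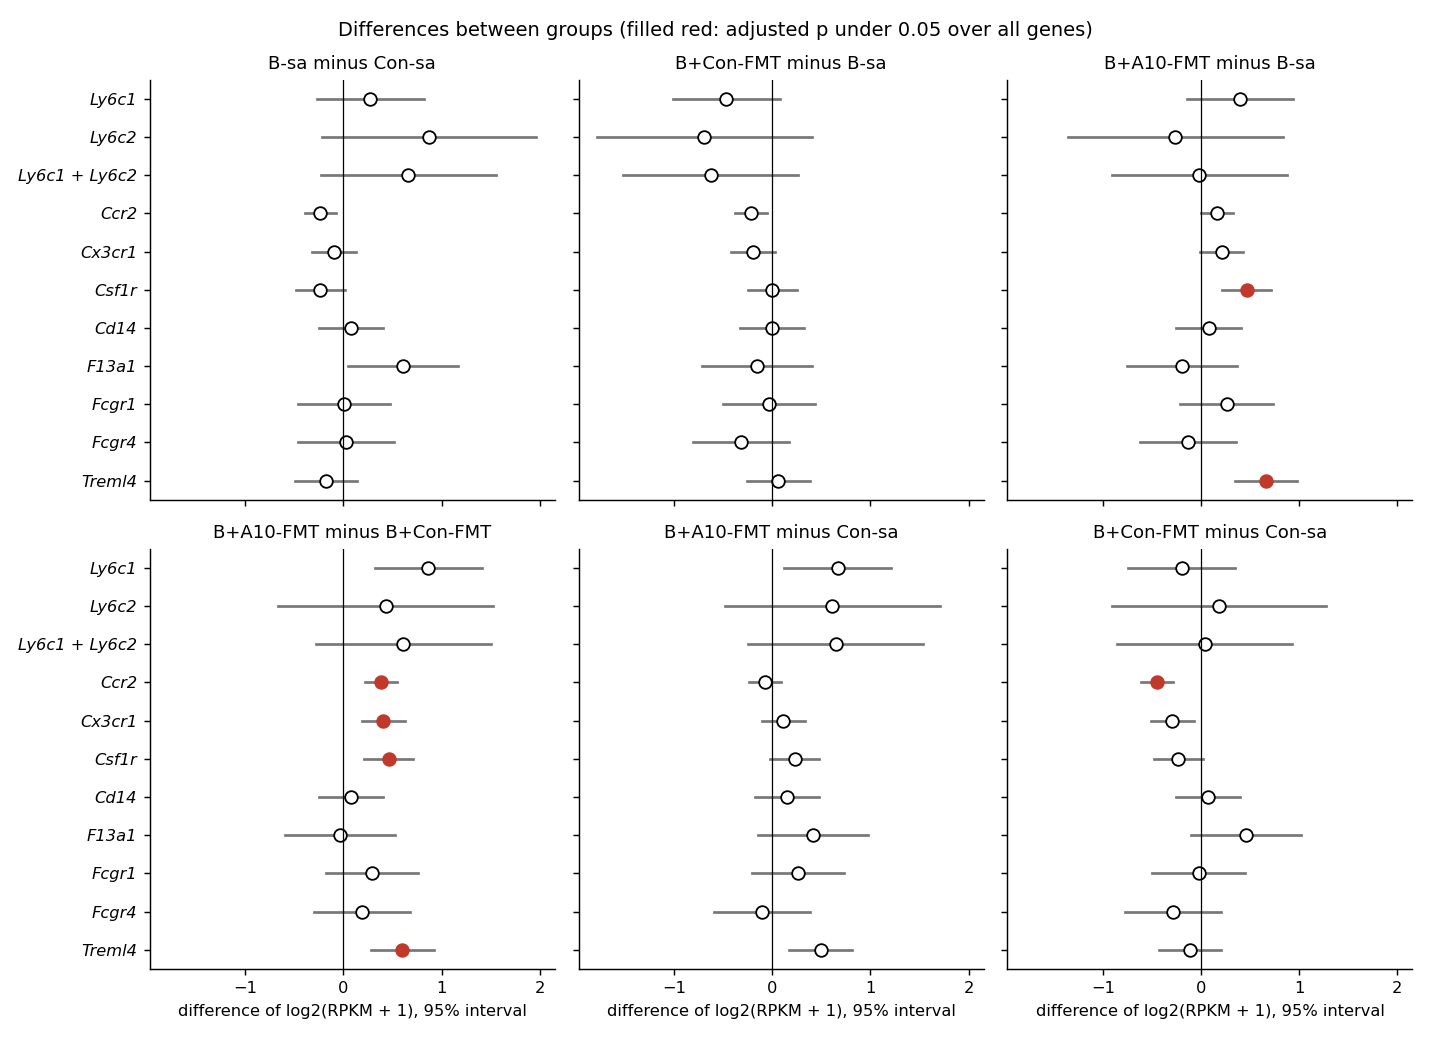
Log2 differences of the 10 monocyte genes and of Ly6c1 + Ly6c2 in the 6 comparisons, 1 panel each. Points give the limma estimate of log2(RPKM + 1), bars its 95% interval, and filled red points an adjusted p under 0.05. Red points stand in 3 panels, with 4 between the FMT groups, 2 for B+A10-FMT versus B-sa and 1, on the negative side, in B+Con-FMT versus Con-sa.

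Groups of 3 mice often stand apart in these data. The mice of B-sa and Con-sa did not overlap for 5 of the 10 members, 3 of them higher and 2 lower in B-sa, while 34.0% of all genes tested did not overlap. Between B+A10-FMT and B+Con-FMT 4 members did not overlap (Ly6c1, Ccr2, Cx3cr1 and Treml4), each higher in B+A10-FMT, against 35.0% of all genes. Between B+A10-FMT and B-sa these were Csf1r and Treml4 (27.0% of all genes), and between B+Con-FMT and B-sa Ly6c1 and Ccr2, both lower (19.4% of all genes). Between B+A10-FMT and Con-sa Treml4 alone stood apart (21.6% of all genes). Between B+Con-FMT and Con-sa Ccr2 and Cx3cr1 were lower and F13a1 was higher without overlap (34.1% of all genes). An exact permutation test of 3 mice against 3 cannot give a p below 0.1, and 0.1 is its two-sided p for each of these separations.

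**Figure D2:**
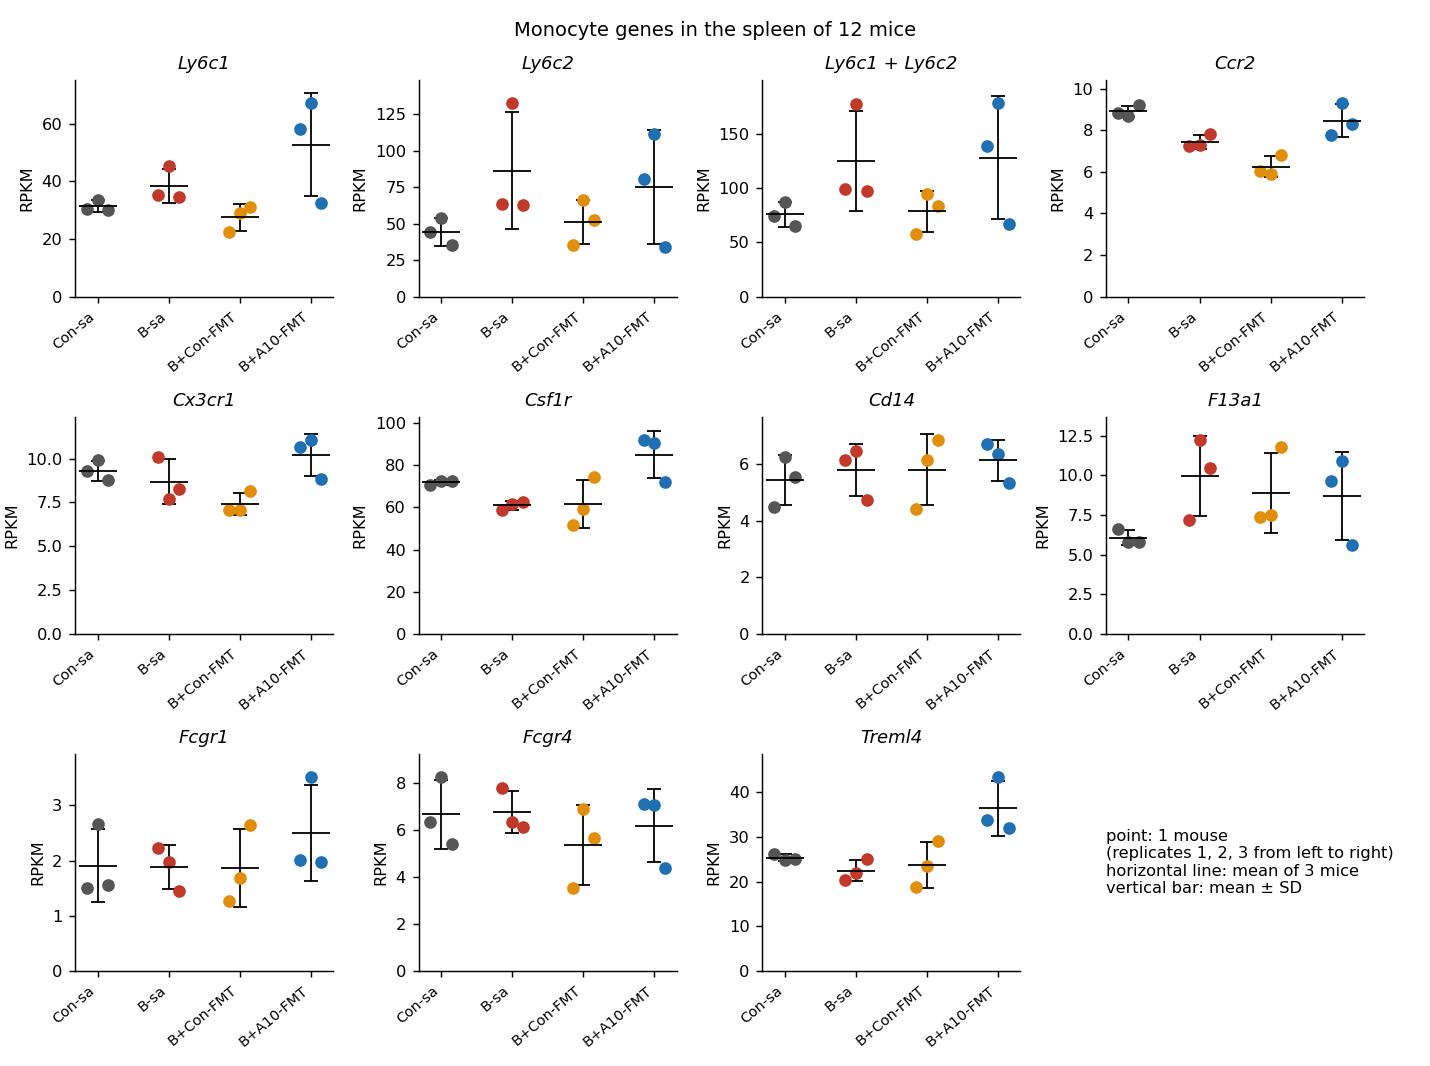
RPKM of each monocyte gene, and of the sum of Ly6c1 and Ly6c2, in each of the 12 mice by group. Points are mice, and the bars give the mean and SD of 3 mice. Treml4 lies at 32.0 RPKM or more in the B+A10-FMT mice and at 29.1 or less in all others, while Ly6c2 spreads widely within every busulfan group.

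Ly6c1 and Ly6c2 encode the surface antigen Ly6C, a small protein held to the membrane by a lipid anchor. They are neighbours on the minus strand of chromosome 15, at chr15:75044018-75048920 and chr15:75108161-75112066 (RefSeq, GRCm38.p6), with 59240 bases between them. Their coding sequences, each of 396 bases with the stop codon (GENCODE M21, GRCm38), differ at 9 bases and are 97.73% identical. The internal coding exon, 117 bases at chr15:75047353-75047469 in Ly6c1 and chr15:75110511-75110627 in Ly6c2, is the same in both genes and is printed because reads from it carry nothing that tells the genes apart.
Ly6c1 and Ly6c2 internal coding exon: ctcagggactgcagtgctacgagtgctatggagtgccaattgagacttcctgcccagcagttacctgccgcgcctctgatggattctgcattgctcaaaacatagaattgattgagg
The coding part of the last exon, 209 bases at chr15:75045402-75045610 and chr15:75108543-75108751, differs at 3 bases, which are in capitals below.
Ly6c1 last exon: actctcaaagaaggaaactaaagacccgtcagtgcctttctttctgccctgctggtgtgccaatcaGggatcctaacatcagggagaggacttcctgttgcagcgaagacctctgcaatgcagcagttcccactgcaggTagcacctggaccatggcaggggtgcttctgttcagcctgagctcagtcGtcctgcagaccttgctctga
Ly6c2 last exon: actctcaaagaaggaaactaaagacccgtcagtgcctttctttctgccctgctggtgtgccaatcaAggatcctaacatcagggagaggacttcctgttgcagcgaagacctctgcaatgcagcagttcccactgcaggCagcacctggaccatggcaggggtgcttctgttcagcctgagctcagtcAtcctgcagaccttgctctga
The longest stretch shared by both last exons is 72 bases. Of the 347 windows of 50 bases in the coding sequence of Ly6c1, 162 (46.69%) occur unchanged in that of Ly6c2, and of the 297 windows of 100 bases 89 (29.97%) do. The study's methods give a SOAPaligner setting for reads with several best matches (-r 2), but how such reads were divided between genes in the RPKM is not given in the sources used here. The values of each gene are therefore uncertain in this respect, and their sum stands beside them.

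Ly6c2 spread widely between the mice of each busulfan group. Its RPKM was 44.3, 53.9 and 35.2 for Con-sa mice, 63.8, 133 and 62.8 for B-sa mice, 35.6, 66.0 and 52.5 for B+Con-FMT mice and 80.7, 111 and 34.0 for B+A10-FMT mice. The B-sa mice lay above the Con-sa mice, whereas mouse 3 of B+A10-FMT was the lowest of all 12. The group means were 44.5 ± 9.37, 86.4 ± 40.1, 51.4 ± 15.2 and 75.3 ± 39.0 (SD, n = 3) in the same order. B-sa stood 1.94-fold over Con-sa, with a log2 difference of 0.87 ± 0.48 (SE), a 95% interval from -0.22 to 1.97 and an adjusted p of 0.25 by limma. Between the FMT groups the difference was 0.43 ± 0.48, with an interval from -0.66 to 1.52 and an adjusted p of 0.586. With a mouse left out these differences ran from 0.52 (without mouse 2 of B-sa) to 1.05 and from 0.073 (without mouse 2 of B+A10-FMT) to 0.91 (without its mouse 3). Ly6c2 was not called in any comparison.

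Ly6c1 was more even between mice than Ly6c2. Its RPKM was 30.5, 33.7 and 30.0 for Con-sa mice, 35.4, 45.2 and 34.5 for B-sa mice, 22.4, 29.0 and 31.1 for B+Con-FMT mice and 58.3, 67.2 and 32.7 for B+A10-FMT mice. Mice 1 and 2 of B+A10-FMT were the highest of all 12, and its mouse 3 was within the range of the other groups. B+A10-FMT stood 1.92-fold over B+Con-FMT, with a log2 difference of 0.87 ± 0.24, a 95% interval from 0.32 to 1.41 and an adjusted p of 0.0519, just over the threshold. Without mouse 3 of B+A10-FMT this difference was 1.17, with an adjusted p of 0.00345 by limma, and Ly6c1 was then also called higher than in B-sa mice (0.70, adjusted p = 0.0342) and in Con-sa mice (0.97, adjusted p = 0.0264). With any of the 5 other mice of the FMT groups left out the difference was not called (0.66 to 0.96, adjusted p up to 0.157). With all mice, Ly6c1 was called in 3 of 8 other settings, when genes had to reach 1 RPKM in every mouse (adjusted p = 0.0499), with equal totals outside the globin genes (0.0311) and in limma without trend and robust settings (0.0385), and in the other 5 its adjusted p was up to 0.155. The pancreatic acinar genes named above summed to 254 and 431 RPKM in mice 1 and 2 of B+A10-FMT and to 5426 in mouse 3, and the Pearson r of their mean log2 level with Ly6c1 was -0.712 over the 12 mice. Their part in the Ly6c1 values was not tested.

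The sum of both genes can still move with how shared reads were divided, since RPKM is scaled to the length of each transcript. It was 74.8, 87.6 and 65.1 RPKM for Con-sa mice, 99.2, 178 and 97.3 for B-sa mice, 58.0, 95 and 83.6 for B+Con-FMT mice and 139, 179 and 66.7 for B+A10-FMT mice. B-sa lay above Con-sa and above B+Con-FMT in every mouse, and B+A10-FMT spanned nearly the whole range. The sum differed by 0.66 ± 0.39 between B-sa and Con-sa (1.65-fold, adjusted p = 0.281), by -0.63 ± 0.39 between B+Con-FMT and B-sa (adjusted p = 0.444) and by 0.61 ± 0.39 between the FMT groups (1.62-fold, adjusted p = 0.336). Between B+A10-FMT and B-sa it differed by -0.02 ± 0.39, with a 95% interval from -0.91 to 0.87. With a mouse left out the sum differed by 0.38 (without mouse 2 of B-sa) to 0.81 between B-sa and Con-sa, and by 0.31 (without mouse 2 of B+A10-FMT) to 1.02 (without its mouse 3) between the FMT groups. The ratio of Ly6c2 to Ly6c1 was 1.17 to 1.6 for Con-sa mice, 1.80 to 2.94 for B-sa mice, 1.59 to 2.28 for B+Con-FMT mice and 1.04 to 1.66 for B+A10-FMT mice. It was therefore higher in each B-sa mouse than in any Con-sa or B+A10-FMT mouse.

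Of the 6 transcripts listed for Ly6c1, NM_010741.3 and NM_001252055.1 held most of its level. NM_001252055.1 reached 3.04, 8.21 and 8.76 RPKM for Con-sa mice, 6.82, 11.03 and 10.6 for B-sa mice, 6.42, 10.01 and 9.22 for B+Con-FMT mice and 25.1, 29.4 and 9.68 for B+A10-FMT mice. Mice 1 and 2 of B+A10-FMT stood far above the rest for this transcript, which made up 43.0% and 43.7% of their Ly6c1 level against 9.95% to 34.5% in the other 10 mice. NM_010741.3 ran from 14.1 to 29.3 RPKM over the 12 mice, with those same mice at 25.7 and 29.3 and mouse 2 of B-sa at 27.1. On the table of single transcripts, where 25867 were tested, NM_001252055.1 differed by 1.11 between the FMT groups (adjusted p = 0.224), and limma called no transcript of the 10 members in any comparison.

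**Figure D3:**
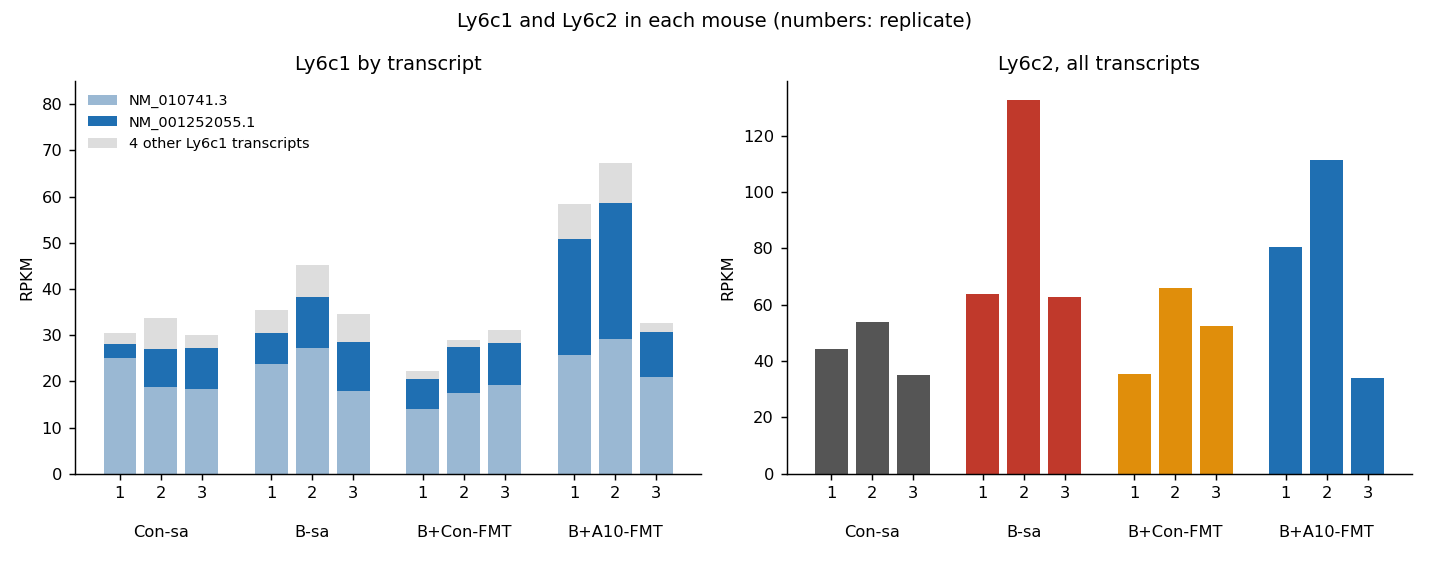
RPKM of Ly6c1, stacked by transcript, and of Ly6c2 in each of the 12 mice. Bars start at 0 and are grouped by treatment. The NM_001252055.1 part of Ly6c1 is largest in mice 1 and 2 of B+A10-FMT, and the highest Ly6c2 bar, 133 RPKM, belongs to mouse 2 of B-sa.

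Neutrophil genes moved with Ly6c2 from mouse to mouse. The summed RPKM of 12 neutrophil genes, which encode granule proteins, alarmins and receptors of neutrophils and their precursors, was 2126 to 2201 for Con-sa mice, 3770 to 6165 for B-sa mice, 2439 to 3536 for B+Con-FMT mice and 2107 to 5220 for B+A10-FMT mice. Of these genes 4 were called higher for B-sa mice than for Con-sa mice (4.73% of all genes), among them Prtn3 (1.52 ± 0.38, adjusted p = 0.0335), Camp (1.13 ± 0.30, adjusted p = 0.0419) and Ltf (1.09 ± 0.31, adjusted p = 0.0492), and 12 of 12 had higher means. Over the 12 mice the mean log2 level of the list and that of Ly6c2 had a Pearson r of 0.923, and 0.94 after the group means were removed. For the 14 other classical monocyte genes tested the same r with Ly6c2 were 0.894 and 0.869. The genes most like Ly6c2 by the same measure were Mmp9 (r = 0.95), S100a8 (0.937) and Fpr2 (0.937), which neutrophils make in large amounts. All 12 neutrophil genes were detected, and their part in the Ly6c2 values was not tested.

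Ly6c1 moved with the mean level of its neighbours. The other genes of the Ly6 family on chromosome 15 number 14, of which 8 were tested. The mean log2 level of those 8 had a Pearson r of 0.947 with Ly6c1 over the 12 mice, and 0.968 after the group means were removed. Between the FMT groups 6 of the 8 had higher means in B+A10-FMT mice and 2 had lower means, Ly6k among them. Lynx1, which encodes a modulator of acetylcholine receptors, was the only gene of that list called in any comparison. It was higher in B+A10-FMT mice than in B+Con-FMT mice (0.71 ± 0.14, adjusted p = 0.0132), where 7.58% of all genes were called higher. Ly6e, whose product shapes the entry of viruses into cells, was at 436 to 523 RPKM in B+Con-FMT and at 681, 724 and 490 in B+A10-FMT. Its difference of 0.38 ± 0.13 was not called (adjusted p = 0.0879). Lynx1 and Ly6e were also, with Pram1, the genes most like Ly6c1 over the 12 mice (r = 0.965, 0.961 and 0.965). The 8 endothelial genes summed to 139 to 149 RPKM in Con-sa, 115 to 124 for B-sa mice, 108 to 126 for B+Con-FMT mice and 145 to 151 for B+A10-FMT mice, and 6 of them were called higher in B+A10-FMT mice than in B+Con-FMT mice (7.58% of all genes), with Kdr (0.58), Cdh5 (0.57) and Eng (0.55) foremost. The mean log2 level of the endothelial list had a Pearson r of 0.486 with Ly6c1 over the 12 mice, and 0.183 after the group means were removed, that of the neutrophil list 0.663 and 0.934, and that of the other classical monocyte genes 0.842 and 0.908. All 8 endothelial genes were detected, and the part of either list in the Ly6c1 values was not tested.

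**Figure D4:**
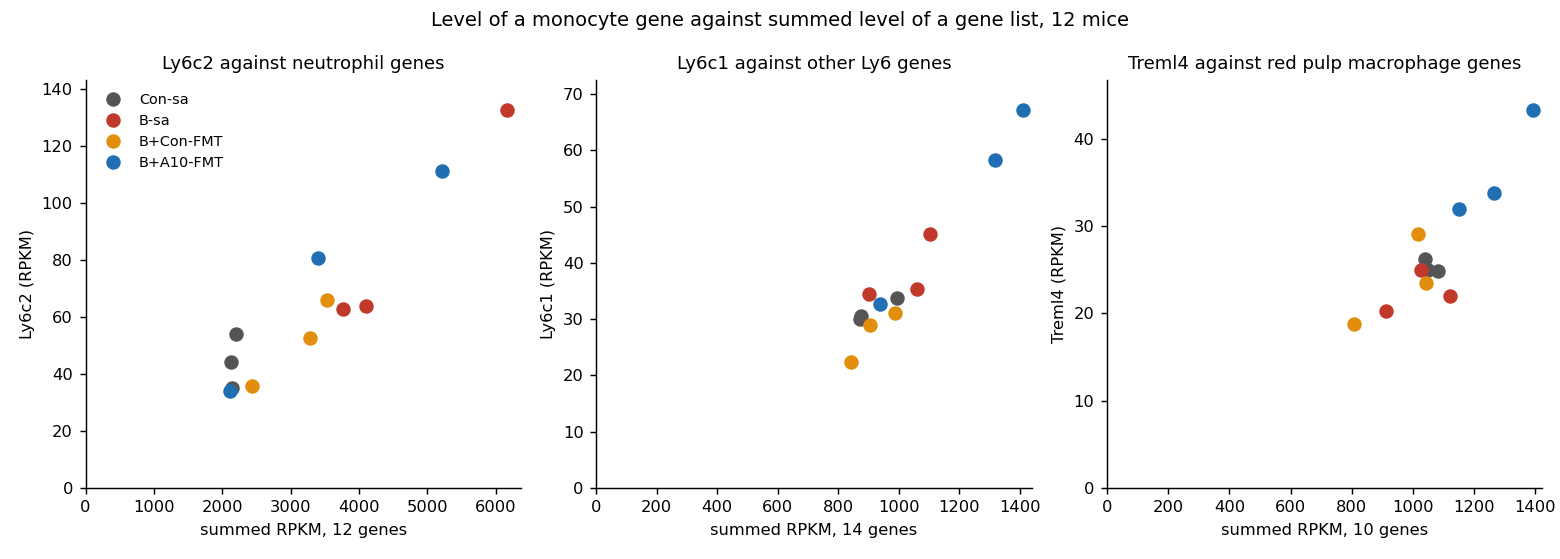
Summed RPKM of marker genes (horizontal axes) against the RPKM of a monocyte gene (vertical axes) in the 12 mice, colored by group: Ly6c2 against 12 neutrophil genes, Ly6c1 against the 14 other Ly6 genes of chromosome 15, and Treml4 against 10 red pulp macrophage genes. In each panel the higher values of a list stand with the higher values of the monocyte gene.

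Ccr2 encodes the receptor for the chemokine CCL2 and lets classical monocytes leave the bone marrow. It lies at chr9:124101918-124109140 on GRCm38.p6. Its RPKM was 8.83, 8.69 and 9.22 for Con-sa mice, 7.22, 7.28 and 7.80 for B-sa mice, 6.02, 5.92 and 6.82 for B+Con-FMT mice and 7.75, 9.31 and 8.29 for B+A10-FMT mice. The groups formed steps, with B+Con-FMT below B-sa and B-sa below Con-sa in every mouse, and with B+A10-FMT above B+Con-FMT in every mouse but overlapping both B-sa and Con-sa. Ccr2 fell by 0.45 ± 0.07 in B+Con-FMT versus Con-sa (fold 0.702, 95% interval -0.61 to -0.29, adjusted p = 0.0058). It was higher by 0.38 ± 0.07 in B+A10-FMT mice than in B+Con-FMT mice (fold 1.35, 95% interval 0.22 to 0.54, adjusted p = 0.0115). Both of the smaller steps missed the threshold: B-sa versus Con-sa was -0.23 ± 0.07 (adjusted p = 0.0538) and B+Con-FMT minus B-sa -0.22 ± 0.07 (adjusted p = 0.158).

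The lower level of Ccr2 in B+Con-FMT than in Con-sa was called with any of these 6 mice left out, at adjusted p-values of 0.00736 to 0.0275. The difference between the FMT groups was no longer called without mouse 1 of B+Con-FMT (0.36, adjusted p = 0.0515) or without mouse 2 of B+A10-FMT (0.32, adjusted p = 0.06). Dendritic and NK cells also make Ccr2. The summed RPKM of 8 dendritic cell genes was 59.3 to 62.9 for Con-sa mice, 44.2 to 48.5 for B-sa mice, 43.9 to 48.1 for B+Con-FMT mice and 52.8 to 62.4 for B+A10-FMT mice. That of 7 NK cell genes was 123 to 134 in Con-sa, 61.8 to 69.8 for B-sa mice, 59.9 to 71.8 for B+Con-FMT mice and 63.3 to 88.1 for B+A10-FMT mice. Siglech, a receptor of plasmacytoid dendritic cells and a gene of the dendritic list, was with Fyco1 and Kcnj16 among the genes most like Ccr2 (r = 0.960, 0.963 and 0.957). Siglech fell by 0.76 in B-sa against Con-sa mice (adjusted p = 0.0027), by 0.55 in B+Con-FMT against B-sa mice (adjusted p = 0.0229) and by 1.31 in B+Con-FMT against Con-sa mice (adjusted p = 7.9e-05), and was higher by 0.90 in B+A10-FMT mice than in B+Con-FMT mice (adjusted p = 0.000545). The dendritic list did not move with Siglech throughout. For B+Con-FMT against B-sa mice Siglech was the only 1 of the 8 called, and 4 had higher and 4 lower means. The list median there was -0.03, against -0.0041 over all genes. Busulfan alone lowered 3 of the 8 relative to Con-sa mice (9.78% of all genes). Between the FMT groups 2 were called higher (7.58% of all genes). All genes of the dendritic and NK lists were detected, and their part in the Ccr2 values was not tested. In whole spleen, fewer cells of a type and less RNA per cell cannot be told apart, for Ccr2 as for every gene here.

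Cx3cr1 encodes the receptor for fractalkine, a chemokine held on the surface of endothelium, and is the marker gene of patrolling monocytes (chr9:120048683-120068296). Its RPKM was 9.27, 9.91 and 8.76 for Con-sa mice, 10.1, 7.68 and 8.28 for B-sa mice, 7.05, 7.07 and 8.15 for B+Con-FMT mice and 10.7, 11.1 and 8.82 for B+A10-FMT mice. All B+Con-FMT mice lay below all Con-sa and all B+A10-FMT mice, and B-sa overlapped every other group. B+A10-FMT exceeded B+Con-FMT by 0.41 ± 0.10 (fold 1.37, 95% interval 0.19 to 0.63, adjusted p = 0.0285). B+Con-FMT versus Con-sa was -0.29 ± 0.10 and was not called (adjusted p = 0.0884), except with totals made equal outside the globin genes (-0.34, adjusted p = 0.042). The call between the FMT groups was lost without mouse 1 (adjusted p = 0.104) or 2 (0.0883) of B+Con-FMT and without mouse 1 (0.0715) or 2 (0.121) of B+A10-FMT, at differences of 0.35 to 0.38. The genes most like Cx3cr1 were Dock1 (r = 0.929), Cyfip1 (0.923) and Tnfrsf1b (0.917).

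Ligands of these receptors differed widely in level. Of 8 chemokines and growth factors that act on monocytes, Ccl7, Ccl12, Cx3cl1 and Csf2 were too low to be tested. Ccl2, the main ligand of CCR2, had mean RPKM of 1.61 for Con-sa mice, 1.95 for B-sa mice, 2.52 for B+Con-FMT mice and 1.90 for B+A10-FMT mice and was not called in any comparison. Csf1, the growth factor that binds the receptor made from Csf1r, was the only ligand called. Its RPKM was 30.8, 30.0 and 31.3 for Con-sa mice, 25.5, 23.8 and 23.8 for B-sa mice, 26.5, 24.9 and 28.9 for B+Con-FMT mice and 34.2, 32.6 and 33.6 for B+A10-FMT mice. B+A10-FMT was the highest group and B-sa the lowest in mean. Csf1 fell by 0.32 in B-sa against Con-sa mice (adjusted p = 0.00634). Its level was higher in B+A10-FMT mice than in B-sa mice by 0.44 (adjusted p = 0.00248) and also exceeded that of B+Con-FMT mice, by 0.31 (adjusted p = 0.00865). In these comparisons Csf1 was 1 of 4 ligands tested, where 9.78% of all genes were called lower, 4.0% higher and 7.58% higher. Il34, the other ligand of the CSF1 receptor, was at 5.54 to 9.12 RPKM over the 12 mice and was not called.

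Csf1r encodes that receptor, a tyrosine kinase on which monocytes and macrophages depend, and had a mean of 69.9 RPKM over the 12 mice (93.59% of the genes listed were lower). Its RPKM was 70.6, 72.5 and 72.5 for Con-sa mice, 58.7, 61.5 and 62.8 for B-sa mice, 51.6, 59.2 and 74.2 for B+Con-FMT mice and 91.9, 90.7 and 72.1 for B+A10-FMT mice. The B-sa mice lay below the Con-sa and the B+A10-FMT mice, and mouse 3 of B+Con-FMT overlapped the lowest B+A10-FMT mouse. Csf1r was higher in B+A10-FMT mice than in B-sa mice by 0.46 ± 0.12 (fold 1.39, 95% interval 0.21 to 0.71, adjusted p = 0.0414). It was higher than in B+Con-FMT by 0.46 ± 0.12 too (fold 1.38, adjusted p = 0.0296, exact permutation p = 0.2). B-sa versus Con-sa was -0.23 ± 0.12 (adjusted p = 0.189), and B+A10-FMT versus Con-sa 0.23 ± 0.12 (adjusted p = 0.407).

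Of the calls of members, that of Csf1r against B-sa held in the fewest settings. Against B-sa, Csf1r was called in 3 of 8 other settings, over adjusted p-values of 0.0377 to 0.0691, and with a mouse left out only when it was mouse 3 of B+A10-FMT. Without mouse 1, 2 or 3 of B-sa its adjusted p was 0.0759, 0.122 and 0.0711, and without mouse 1 or 2 of B+A10-FMT 0.111 and 0.138. Csf1r stayed higher in B+A10-FMT in each of these fits. Against B+Con-FMT the call was lost without mouse 1 (0.105) or 2 (0.0861) of B+Con-FMT and without mouse 1 (0.0761) or 2 (0.118) of B+A10-FMT, at differences of 0.34 to 0.44. Without mouse 3 of B+Con-FMT, Csf1r was called lower in B+Con-FMT than in Con-sa (-0.37, adjusted p = 0.0474). Red pulp macrophages also carry the receptor. Their 10 genes summed to 1038 to 1081 RPKM for Con-sa mice, 911 to 1120 for B-sa mice, 806 to 1042 for B+Con-FMT mice and 1149 to 1394 for B+A10-FMT mice, and the Pearson r of their mean log2 level with Csf1r was 0.928 over the 12 mice. After the group means were removed that r was 0.823. All 10 were detected, and their part in the Csf1r values was not tested. The genes most like Csf1r were P3h2 (r = 0.968), Sdk2 (0.963) and Adgre4 (0.962), a receptor gene of patrolling monocytes. The mean log2 level of 12 other genes of patrolling monocytes had an r of 0.716 with Csf1r, and -0.035 after the group means were removed.

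Treml4 encodes a receptor of the TREM family that patrolling monocytes and some spleen macrophages and dendritic cells carry, and that binds dying cells (chr17:48264200-48275607). Its RPKM was 26.2, 24.8 and 25.0 for Con-sa mice, 20.3, 22.0 and 25.0 for B-sa mice, 18.8, 23.5 and 29.1 for B+Con-FMT mice and 33.8, 43.3 and 32.0 for B+A10-FMT mice. The B+A10-FMT mice were the highest 3 of all 12. Treml4 was higher in B+A10-FMT mice than in B-sa mice by 0.66 ± 0.14 (fold 1.62, 95% interval 0.35 to 0.98, adjusted p = 0.029). It was higher than in B+Con-FMT by 0.60 ± 0.14 (fold 1.53, 95% interval 0.28 to 0.92, adjusted p = 0.0275). Against Con-sa the difference was 0.49 ± 0.14 (fold 1.43, 95% interval 0.18 to 0.81) with an adjusted p of 0.202, in a comparison in which few genes of any kind were called.

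The Treml4 difference from B-sa was called in 8 of 8 other settings (adjusted p = 0.0261 to 0.0454), and that from B+Con-FMT in 7 of 8. Both depended on single mice at this group size. Against B-sa the call was lost without mouse 1 (0.60, adjusted p = 0.0583) or 2 (0.65, 0.0997) of B-sa and without mouse 1 (0.71, 0.057) or 2 (0.54, 0.0936) of B+A10-FMT. Against B+Con-FMT it was lost without mouse 1 (0.45, adjusted p = 0.0844) or 2 (0.60, 0.0752) of B+Con-FMT and without mouse 2 of B+A10-FMT (0.47, 0.0993). Of the 10 red pulp macrophage genes 5 were called higher in B+A10-FMT mice than in B+Con-FMT mice (7.58% of all genes), led by Slc40a1, the iron exporter ferroportin (0.68, adjusted p = 0.00399), Hmox1, which breaks down heme (0.58, adjusted p = 0.0164), and Axl (0.52, adjusted p = 0.0122). Their list and Treml4 had a Pearson r of 0.901 over the 12 mice, and 0.805 after the group means were removed. For 12 other genes of patrolling monocytes the same r were 0.647 and 0.124. The part of either list in the Treml4 values was not tested. The genes most like Treml4 were Clec4n (r = 0.978), Sema6d (0.948) and Kcnj10 (0.946). The 6 other genes of the TREM family and its adaptor had 0 calls by limma between the FMT groups and 0 with an unadjusted p under 0.05, where 28.9% of all genes were under it. Tyrobp, the adaptor through which these receptors signal, had mean RPKM of 202 for Con-sa mice, 165 for B-sa mice, 170 for B+Con-FMT mice and 200 for B+A10-FMT mice and was not called in any comparison.

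Cd14 encodes the receptor that hands bacterial lipopolysaccharide to Toll-like receptor 4. It was at 4.40 to 6.84 RPKM in all 12 mice, and every group held low and high values. The largest of its 6 differences was 0.15, between B+A10-FMT and Con-sa (adjusted p = 0.7), and 99 to 157 reads were estimated behind a value. Among 9 partners of CD14 and Toll-like receptor 4, Cd180, a related receptor of B cells and myeloid cells, fell by 0.49 in B+Con-FMT against Con-sa mice (adjusted p = 0.02). Its level was higher in B+A10-FMT mice than in B-sa mice by 0.42 (adjusted p = 0.0436) and also exceeded that of B+Con-FMT mice, by 0.60 (adjusted p = 0.00866). Tlr4 was also higher in B+A10-FMT mice than in B+Con-FMT mice (0.31, adjusted p = 0.0485). Ly96, which holds the lipopolysaccharide in the receptor, fell by 0.42 in B-sa against Con-sa mice (adjusted p = 0.0119) and by 0.31 in B+Con-FMT against Con-sa mice (adjusted p = 0.0496), and was higher by 0.35 in B+A10-FMT mice than in B-sa mice (adjusted p = 0.0443). Lbp, a serum protein that binds lipopolysaccharide, was higher by 0.33 in B-sa than in Con-sa (adjusted p = 0.0462) and fell by 0.41 in B+A10-FMT against B-sa mice (adjusted p = 0.0388).

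F13a1 encodes the A subunit of coagulation factor XIII, which classical monocytes and some macrophages make. Its RPKM was 6.60, 5.81 and 5.77 for Con-sa mice, 7.21, 12.2 and 10.5 for B-sa mice, 7.36, 7.48 and 11.8 for B+Con-FMT mice and 9.64, 10.9 and 5.61 for B+A10-FMT mice. All B-sa and B+Con-FMT mice lay above all Con-sa mice, and mouse 3 of B+A10-FMT lay below them. B-sa stood 1.64-fold over Con-sa, at 0.61 ± 0.25 (adjusted p = 0.129), and B+Con-FMT differed from Con-sa by 0.46 ± 0.25 (adjusted p = 0.267), so that neither was called. F13a1 and Ly6c2 had a Pearson r of 0.749 over the 12 mice, whereas Ccr2, the other defining gene of classical monocytes, had -0.0045 with Ly6c2 and -0.227 with F13a1. These classical genes therefore did not rank the mice in the same order. Naprt (r = 0.938), Dna2 (0.926) and Steap3 (0.912) were most like F13a1.

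Fcgr1 encodes CD64, the receptor with high affinity for IgG, and Fcgr4 encodes a receptor for IgG that patrolling monocytes carry. Fcgr1 was the lowest of the 10 genes per length, at 1.26 to 3.51 RPKM, with 47 to 133 estimated reads behind a value, and its groups overlapped in every comparison. Fcgr4 was at 3.54 to 8.26 RPKM, with 59 to 137 estimated reads, and its groups overlapped as well. The largest differences were 0.29 for Fcgr1 between the FMT groups (adjusted p = 0.4) and -0.32 ± 0.22 for Fcgr4 between B+Con-FMT and B-sa mice (adjusted p = 0.49). No change of either gene was detected. Of 8 partners of the Fc receptors, Syk, the kinase they signal through, fell by 0.37 in B-sa against Con-sa mice (adjusted p = 0.0055). Fgr, a kinase of the Src family, was higher in B+A10-FMT mice than in B+Con-FMT mice (0.41, adjusted p = 0.0194). Lyn, of the same family, fell by 0.22 in B+Con-FMT against Con-sa mice (adjusted p = 0.0323). Each was the only 1 of the 8 called in its comparison, where 9.78% of all genes were called lower, 7.58% higher and 6.57% lower. For B+A10-FMT versus B-sa 1 of the 8 was called higher (4.0% of all genes), and 7 had higher means.

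Of 12 other genes of patrolling monocytes tested, 5 were called higher in B+A10-FMT mice than in B+Con-FMT mice (Ace, Adgre4, Cd300e, Cd36 and Itgax), where 7.58% of all genes were, and 4 had lower means. The list median was 0.09 against 0.05 over all genes. For B+A10-FMT versus B-sa 2 of the 12 were called higher (4.0% of all genes). Cd300e, an activating receptor of monocytes, was at 4.92, 4.66 and 4.39 RPKM for Con-sa mice, 3.61, 3.95 and 3.91 for B-sa mice, 3.22, 3.45 and 3.56 for B+Con-FMT mice and 5.75, 9.44 and 4.89 for B+A10-FMT mice. Its B+A10-FMT mice lay above all other mice except that mouse 3 fell just below the highest Con-sa mouse. Cd300e was higher in B+A10-FMT by 0.76 than in B+Con-FMT mice (adjusted p = 0.014) and by 0.63 than in B-sa (adjusted p = 0.039). Adgre4 was at 9.82 to 14.0 RPKM in the other 9 mice and at 19.8, 19.5 and 14.7 in B+A10-FMT. It was higher there by 0.64 than in B+Con-FMT mice (adjusted p = 0.0161) and by 0.57 than in B-sa (adjusted p = 0.036).

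Ace, the angiotensin-converting enzyme, which endothelium makes too, was at 6.16, 6.27 and 6.69 RPKM for Con-sa mice, 4.57, 5.15 and 4.17 for B-sa mice, 3.41, 3.32 and 3.86 for B+Con-FMT mice and 6.13, 6.48 and 4.88 for B+A10-FMT mice. Its groups formed the same steps as those of Ccr2. Ace fell by 0.39 in B-sa against Con-sa mice (adjusted p = 0.0225) and by 0.70 in B+Con-FMT against Con-sa mice (adjusted p = 0.00248), and was higher by 0.59 in B+A10-FMT mice than in B+Con-FMT mice (adjusted p = 0.00581). In B-sa versus Con-sa 3 of the 12 patrolling genes were called lower (9.78% of all genes), the others being Klf2, a regulator of homing (-0.47, adjusted p = 0.0119), and Pou2f2 (-0.28, adjusted p = 0.0244). In B+Con-FMT versus Con-sa 3 were called lower (6.57% of all genes), with Cd36 (-0.31, adjusted p = 0.048) and Itgax (-0.25, adjusted p = 0.0496) beside Ace. Nr4a1, the factor on which patrolling monocytes depend, was at 10.5 to 14.4 RPKM in all mice and was not called.

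Of the other classical monocyte genes, 14 of 15 were tested. For B+A10-FMT versus B+Con-FMT 3 were called higher (7.58% of all genes), among them Plac8 (0.46, adjusted p = 0.0271) and Fn1, which encodes fibronectin (0.38, adjusted p = 0.0403). The list median was 0.17 against 0.05 over all genes. In B+Con-FMT versus Con-sa 3 were called lower (6.57% of all genes), among them Plac8 (-0.44, adjusted p = 0.0332) and Ms4a4c (-0.43, adjusted p = 0.0464). For B-sa versus Con-sa 1 of the 14 was called lower (9.78% of all genes) and 0 higher (4.73%). There 7 had an unadjusted p under 0.05 by limma (31.3% of all genes) and 10 had higher means. The list median was 0.19 in that comparison, against -0.04 over all genes. Chil3, a secreted protein of classical monocytes and neutrophils, was at 80.1, 91.5 and 76.1 RPKM in Con-sa and at 138, 209 and 143 in B-sa, a difference of 0.95 that was not called (adjusted p = 0.0567). Lyz2, the most abundant gene of the list per length, had mean RPKM of 1310 for Con-sa mice, 1462 for B-sa mice, 1426 for B+Con-FMT mice and 1497 for B+A10-FMT mice and was not called in any comparison. Limma called 0 genes of the classical and patrolling lists in B+Con-FMT versus B-sa, where 3 and 4 had an unadjusted p under 0.05 (18.4% of all genes), and 0 in B+A10-FMT versus Con-sa, where 4 and 4 did (13.5% of all genes).

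**Figure D5:**
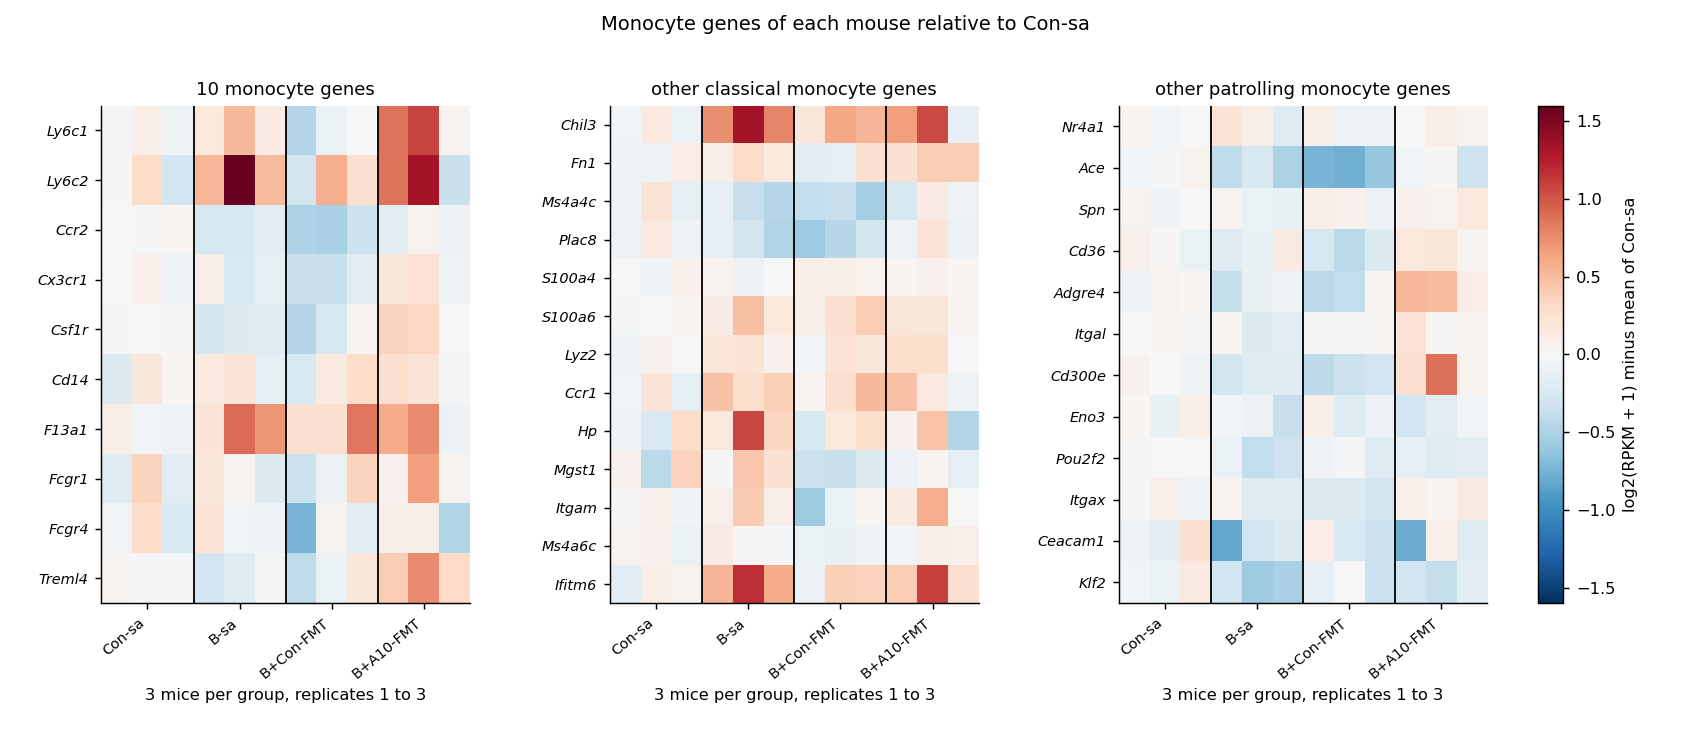
Log2(RPKM + 1) of the 10 members, 13 other classical and 12 other patrolling monocyte genes in each mouse, as the difference from the mean of the 3 Con-sa mice; red is higher and blue lower. Mice 1 and 2 of B+A10-FMT are red for Ly6c1, Csf1r, Treml4, Cd300e and Adgre4, and the B+Con-FMT mice are blue for Ccr2 and Ace.

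Of 13 transcription factors of monocytes and other myeloid cells, 3 fell in B+Con-FMT against Con-sa mice, where 6.57% of all genes did. Against Con-sa, 2 fell in B-sa mice, where 9.78% of all genes did. Between the FMT groups 2 were called higher (7.58% of all genes), and 1 rose in B+A10-FMT over B-sa mice (4.0% of all genes). Zeb2, which holds the identity of monocytes and macrophages, was higher in B+A10-FMT mice than in B+Con-FMT mice (0.43, adjusted p = 0.00762) and in B-sa mice (0.30, adjusted p = 0.038), and fell by 0.28 in B+Con-FMT against Con-sa mice (adjusted p = 0.0392). Klf4, needed for classical monocytes, was higher by 0.42 in B+A10-FMT mice than in B+Con-FMT mice (adjusted p = 0.0105) and fell by 0.29 in B+Con-FMT against Con-sa mice (adjusted p = 0.0459), at 2.33 to 3.82 RPKM. In B-sa versus Con-sa Irf5 fell by 0.38 (adjusted p = 0.00583) and Irf8, the factor that commits progenitors to monocytes, by 0.33 (adjusted p = 0.0229). Irf4, a factor of plasma cells as well, fell by 0.49 in B+Con-FMT against Con-sa mice (adjusted p = 0.0399). The 6 B cell genes summed to 1881 to 2076 RPKM for Con-sa mice, against 1421 to 1712 for B-sa mice. Their median log2 difference there was -0.35, and 5 of the 6 were called, all as lower. Between B+Con-FMT and Con-sa mice that median was -0.22, with 2 called lower and 1 gene higher in mean. The part of B cells in these falls, or in those of Syk, Lyn, Klf2 and Pou2f2, was not tested.

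The order of the 10 genes by mean RPKM over the 12 mice was Csf1r (69.9), Ly6c2 (64.4), Ly6c1 (37.5), Treml4 (27.0), Cx3cr1 (8.90), F13a1 (8.41), Ccr2 (7.76), Fcgr4 (6.25), Cd14 (5.78) and Fcgr1 (2.04). Neighbours among Cx3cr1, F13a1, Ccr2, Fcgr4 and Cd14 lay within the spread of F13a1 and Fcgr4 between mice and their order is not firm, nor is that of Csf1r and Ly6c2 (61.0 and 86.4 RPKM in B-sa), whereas Ly6c1 exceeded Treml4 in each of the 12 mice. The genes differed widely in how even they were between mice of a group. The SD within groups on the log2 scale was 0.08 for Ccr2, where 26.8% of the 500 genes nearest in level had a smaller SD, and 0.59 for Ly6c2, where 99.4% did. It was 0.32 for Ly6c1, 0.34 for F13a1, 0.31 for Fcgr1 and Fcgr4, 0.21 for Cd14, 0.20 for Treml4, 0.16 for Csf1r and 0.14 for Cx3cr1. Among pairs of members, Csf1r and Treml4 had the highest Pearson r over the 12 mice (0.912, and 0.821 after the group means were removed), followed by Ly6c1 and Ly6c2 (0.783 and 0.941) and by Cx3cr1 and Csf1r (0.756 and 0.531). These r describe 12 mice of 4 groups that share their library preparation and scaling. Closest to Cd14 were Ciao3 (r = 0.900), Lyz2 (0.849) and Aaas (0.845), to Fcgr1 Ppp1ca (0.963), Slc25a5 (0.899) and Lgals3bp (0.888), and to Fcgr4 Ckap4 (0.859), Ppib (0.844) and Skap2 (0.827).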

How the data were processed

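RNA of whole spleen from 12 mice, 3 per group, was sequenced after enrichment with oligo(dT). The authors converted read numbers to RPKM and deposited 1 table of RPKM per mouse for 60654 RefSeq transcripts, without counts. Their methods name SOAPaligner, whereas the submitters' processing notes name HISAT, Bowtie2 and mm10. Groups came from the sample labels, doses and ages from the study's methods. RPKM were summed per Entrez gene. Genes reaching 1 RPKM in 3 mice or more (12671, all 10 members among them) entered limma 3.58.1 (R 4.3.3) as log2(RPKM + 1), with trend and robust settings, group as the only factor and two-sided tests, in place of the DEGseq test of the study, which needs counts. Calls had a Benjamini-Hochberg adjusted p under 0.05. Nothing in the labels says how the replicates of a group were housed, and p-values measure the spread between these mice. The sum of Ly6c1 and Ly6c2 took the place of both genes in a separate fit. For single members a two-sided exact permutation test was added. Depth was estimated from the steps between low RPKM after 170 bases were removed from each transcript length, over 192 to 235 values per mouse. Gene symbols and positions came from RefSeq (GRCm38.p6; 18101 of 18221 genes matched) and exon sequences from GENCODE M21 (GRCm38, the assembly of mm10). The tests were checked on simulated data.

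The members and the gene lists were chosen with earlier results of these data known. The text names the members, up to 3 called genes of largest difference per list and comparison (otherwise the gene of highest mean RPKM), and the 3 genes of highest Pearson r with each member; Ccl2, Il34, Chil3 and Nr4a1 were named after their values were seen. Some listed genes are counted but not reported here by name. Alternatives tried were no filter, a filter on the lowest mouse, a pseudocount of 0.1, a replicate block, fits of 2 groups, each mouse left out, 2 other scalings, single transcripts, and limma without trend and robust. Python 3.11.15 with NumPy 2.4.6, pandas 2.3.3 and matplotlib 3.10.9 was used for tables and figures.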

Additional observations from a re-analysis of the deposited data

How the results depend on the processing

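The RPKM carry no counts, so that precision rests on 3 mice a group. Of 924 recomputed log2 differences 841 kept their direction and their side of the threshold, 30 lost a call, 9 gained a call and 44 changed sign, 40 of these with a mouse left out. The cause of these changes was not tested. The number of members called in B+A10-FMT versus B-sa, 2 as reported, was 1 (Treml4) without a filter, with the 2 groups only, after median-of-ratios scaling and without trend and robust, 0 with each transcript on its own and 0 to 3 with a mouse left out. Between the FMT groups, 4 as reported, it was 2 with the 2 groups only, 5 with the filter in every mouse, with equal totals outside globin and without trend and robust, 0 for single transcripts and 0 to 5 with a mouse left out. In B+Con-FMT versus Con-sa, 1 as reported, it was 2 with equal totals outside globin, 0 for single transcripts and 1 to 2 with a mouse left out. In B-sa versus Con-sa it was 1 (Csf1r, adjusted p = 0.0415 by limma) with the 2 groups only, and in B+A10-FMT versus Con-sa it was 0 to 1 with a mouse left out. With a mouse left out, the genes called in all ran from 510 to 2100 for B-sa versus Con-sa, 19 to 468 for B+Con-FMT versus B-sa, 106 to 833 for B+A10-FMT versus B-sa, 222 to 1159 between the FMT groups, 1 to 49 for B+A10-FMT versus Con-sa and 337 to 665 for B+Con-FMT versus Con-sa.

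Whether the replicate numbers pair the mice is not known. The correlations of deviations from the group means ran from -0.37 to 0.30 for same-numbered mice and from -0.43 to 0.51 for the others. Of 18 same-numbered pairs 7 exceeded 0.1. The deviations of the 3 mice of a group cancel out, which ties these correlations together, so that they cannot settle the pairing. With the replicate block the member count was 1 (Treml4) for B+A10-FMT versus B-sa and 3 between the FMT groups, where Csf1r had an adjusted p of 0.0504 by limma; the other 4 counts did not change.

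None of the differences that changed sign was called either way. Outside globin, Csf1r in B+Con-FMT versus B-sa was -0.051, F13a1 between the FMT groups 0.014 and the sum of Ly6c1 and Ly6c2 in B+Con-FMT versus Con-sa -0.013, and after median-of-ratios scaling Fcgr1 in B+Con-FMT versus Con-sa was 0.0061. With a mouse left out, the ranges for B-sa versus Con-sa were -0.033 to 0.19 for Cd14, -0.093 to 0.18 for Fcgr1 and -0.093 to 0.17 for Fcgr4. For B+Con-FMT versus B-sa they were -0.14 to 0.12 for Csf1r, -0.12 to 0.15 for Cd14, -0.22 to 0.13 for Fcgr1 and -0.086 to 0.21 for Treml4. For B+A10-FMT versus B-sa they were -0.62 to 0.22 for Ly6c2, -0.31 to 0.39 for the sum, -0.039 to 0.16 for Cd14, -0.39 to 0.066 for F13a1 and -0.23 to 0.063 for Fcgr4. Between the FMT groups they were -0.076 to 0.19 for Cd14, -0.21 to 0.22 for F13a1 and -0.037 to 0.38 for Fcgr4. For B+A10-FMT versus Con-sa the range was -0.22 to 0.092 for Fcgr4. For B+Con-FMT versus Con-sa they were -0.018 to 0.42 for Ly6c2, -0.11 to 0.24 for the sum, -0.040 to 0.23 for Cd14, -0.21 to 0.15 for Fcgr1 and -0.26 to 0.042 for Treml4.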
